A study of Mus musculus with 2 samples.

Results

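Mir191 and Mir425 are a pair of microRNA genes that lie side by side on mouse chromosome 9, next to the gene Dalrd3. They were chosen by their GENCODE M21 gene names and are 2 of the 2202 microRNA genes counted in each library. MicroRNA sequencing was done on total RNA, limited to short fragments, from hearts of male B6CASTF1/J mice, the F1 hybrids of the laboratory strain C57BL/6J and the wild-derived strain CAST. The animals were 10 days old, and the study holds 1 group of 2 libraries, called replicate 1 and replicate 2. The labels name a separate heart sample for each library beside a shared donor identifier, and no sample carries a treatment, an engineered allele or another age. With no second group there was no contrast between conditions, so the values are a description and carry no p-value.

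A microRNA gene is transcribed into a longer RNA that folds into a hairpin, from which a short mature strand is cut and loaded onto an Argonaute protein. The mature strand finds its target mRNAs mainly through its seed, bases 2 to 8, and neighbouring hairpins can be cut from 1 shared transcript. miR-191 is found in many tissues and, with miR-425, is often used as a reference microRNA in quantitative PCR. In mouse red cell precursors miR-191 has been tied to the last steps of maturation. In human cells miR-425-5p has been shown to lower the mRNA of NPPA, the gene of atrial natriuretic peptide, a hormone of the heart muscle.

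The RefSeq hairpins of both genes (GRCm38.p6, plus strand) are shown to compare how they are built, with the mature strands in capitals. Mir191 (ENSMUSG00000105497.1) occupies chr9:108568319-108568392 and Mir425 (ENSMUSG00000065579.1) occupies chr9:108568777-108568861. The letters are those of the C57BL/6J reference, and the CAST allele that these hybrids also carry was not analysed here.
Mir191 hairpin: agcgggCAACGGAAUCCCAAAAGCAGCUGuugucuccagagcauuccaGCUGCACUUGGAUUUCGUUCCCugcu
Mir425 hairpin: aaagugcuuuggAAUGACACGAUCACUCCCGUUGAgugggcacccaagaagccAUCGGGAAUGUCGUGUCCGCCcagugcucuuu

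The mature strands of each hairpin are shown next with the seed in capitals, because the seed decides which microRNAs belong together as a family.
mmu-miR-191-5p: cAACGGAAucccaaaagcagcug
mmu-miR-191-3p: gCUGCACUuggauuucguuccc
mmu-miR-425-5p: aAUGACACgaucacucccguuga
mmu-miR-425-3p: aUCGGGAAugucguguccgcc

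All 4 seeds differed from each other, so the neighbours are not members of 1 seed family. Among the RefSeq sequences, 1 other mouse microRNA, miR-489-3p, has the seed of miR-425-5p, and none has the seed of any of the other 3 strands. Mir489, the gene of that seed partner, had 0 counts in both libraries, which allows up to 0.800 CPM in replicate 1 and 0.476 CPM in replicate 2 (counts scaled to a microRNA total of 1000000). The hairpin of Mir191 is 74 bases long and that of Mir425 is 85 bases long, with a GC content of 54.1% each. The median over the 340 detected genes, those with at least 10 counts in both libraries, was 83 bases and 50.6% GC. RNAfold gave both hairpins 28 base pairs, at a minimum free energy of -35.0 kcal/mol for Mir191 and -31.7 kcal/mol for Mir425. Neither hairpin shared a stretch of 20 bases with another counted hairpin. The counts are per hairpin and do not tell the 5p strand from the 3p strand.

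The hairpins are 384 bases apart, with Mir191 upstream. Whether they lie inside Dalrd3 depends on the annotation. In the RefSeq table Dalrd3 spans chr9:108567484-108572773 on the plus strand and holds both hairpins. In GENCODE M21, the annotation of the count tables, Dalrd3 begins at 108569886, 1024 bases downstream of Mir425. There both hairpins lie inside the single exon of the longer transcript of the lincRNA 4833445I07Rik (chr9:108567533-108569174, plus strand). Mir191 falls in the intron of the shorter transcript of that lincRNA, and Mir425 starts 2 bases past its end. On the minus strand, Gm24083, another gene annotated as a microRNA (chr9:108568295-108568414), covers all 74 bases of Mir191. Small RNA counts give no level for Dalrd3 or the lincRNA.

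**Figure D1:**
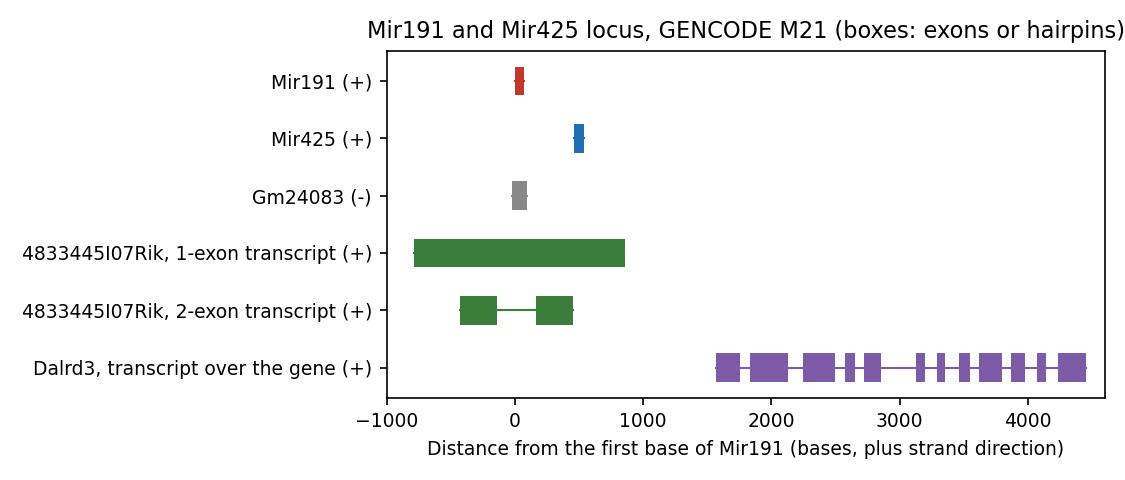
Genes at the Mir191 and Mir425 locus in GENCODE M21 against the distance in bases from the first base of Mir191, with boxes for exons or hairpins, lines for introns and the strand in brackets. Both hairpins lie within the 1-exon transcript of 4833445I07Rik, Gm24083 covers Mir191 on the other strand, and Dalrd3 begins 1024 bases past Mir425.

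Totals on the gene strand were 3748432 counts in replicate 1 and 6305782 in replicate 2, or 42.4% and 37.0% of all reads. Reads with several mapping positions, 36.8% and 48.1% of all reads, were outside every gene count. Marker microRNAs fixed for heart muscle (Mir208a, Mir208b and Mir499) summed to 8268 and 12348 CPM, and Mir126a, an endothelial microRNA, reached 88956 and 100560 CPM. By mean level, the leading genes of the heart muscle, smooth muscle and leukocyte lists were Mir499 at 3678 and 7542 CPM, Mir143 at 43579 and 51393 CPM and Mir155 at 1430 and 1191 CPM. The neuronal list of 6 genes, with Mir124a and Mir9 copies, held 2 counts in each library, led by Mir9-3. Reads that map to more than 1 copy are left out of these counts, so they cannot show whether neuronal microRNAs were low. Of the liver and skeletal muscle markers, Mir122 had 57.9 and 77.7 CPM and Mir206 had 26.9 and 19.5 CPM. Mir133b, the other gene of the skeletal muscle list, was not detected. Amplified reads are not independent molecules, so the intervals and limits given here cover counting error only.

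Mir191 was among the more abundant microRNA genes of the heart libraries in counts that leave out reads with several mapping positions. Genes of microRNAs encoded in several copies can therefore stand too low in this order. Mir191 had 31902 counts in replicate 1 and 46576 in replicate 2, equal to 8511 and 7386 CPM. It ranked 22 and 24 among the 340 detected genes. Its share of the microRNA counts was 0.851% in replicate 1 (exact Clopper-Pearson 95% interval 0.842% to 0.8604%) and 0.739% in replicate 2 (0.732% to 0.745%). The mean was 7948 ± 795 CPM (SD, n = 2).

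Mir425 lay about an order of magnitude lower. It had 3287 counts in replicate 1 and 4960 in replicate 2, equal to 877 and 787 CPM, at ranks 76 and 80. Its share was 0.0877% in replicate 1 (interval 0.0847% to 0.0907%) and 0.0787% in replicate 2 (0.0765% to 0.0809%), and its mean was 832 ± 63.9 CPM (SD, n = 2). Together the pair held 0.878% ± 0.0859 of the microRNA counts (SD, n = 2). The range of Mir191 over the libraries lay above that of Mir425 with no overlap.

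**Figure D2:**
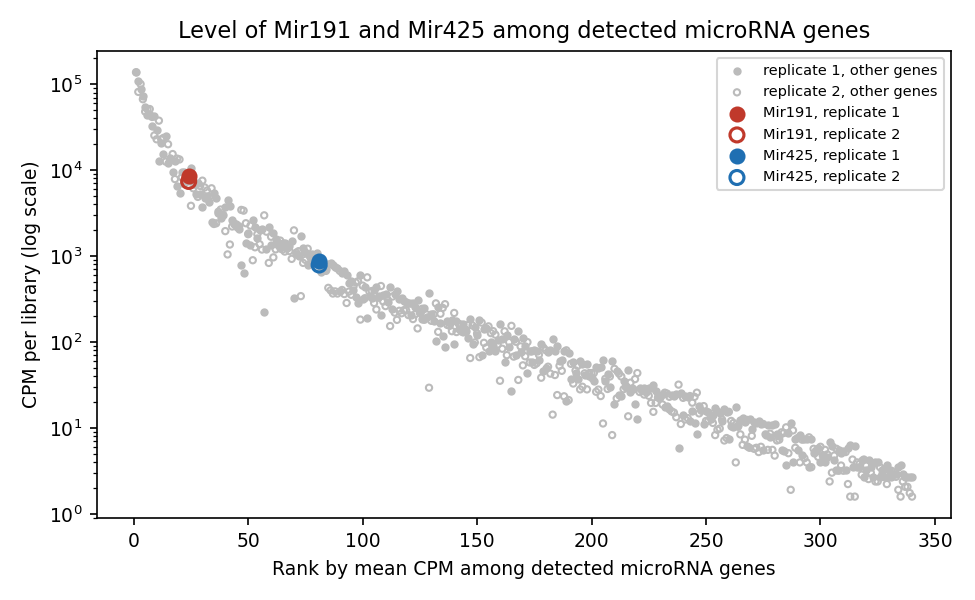
CPM on a log axis against rank by mean CPM for the 340 detected genes, with filled points for replicate 1 and open points for replicate 2. Reads with several mapping positions are left out. Mir191 (8511 and 7386 CPM) sits at rank 24 and Mir425 (877 and 787 CPM) at rank 81, and the points of each gene lie close together.

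In the order of mean levels, the genes around Mir191 were Mir451a, Mirlet7e and Mir151 above it and Mir351, Mir100 and Mirlet7f-2 below. Mir451a, a microRNA of red cells, reached 9592 CPM (replicate 1) and 8251 CPM (replicate 2). Mirlet7e, of the let-7 family, had 9532 and 6917 CPM, and Mir151 had 7404 and 8506 CPM. Of these 6 genes, 5 had a range that overlapped the range of Mir191, so the order among them is not resolved by 2 libraries. The exception was Mirlet7f-2, at 5334 and 6745 CPM, which has 20 bases of its hairpin in common with another, so that its count may be incomplete.

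Around Mir425 the order was Mir10b, Mir146 and Mir328 above it and Mir872, Mir497 and Mir27a below. Mir10b, a microRNA of the Hox clusters, reached 1050 CPM (replicate 1) and 808 CPM (replicate 2). Mir146, known from inflammatory signalling, had 988 and 846 CPM but shares 20 bases with another hairpin. The ranges of Mir10b, Mir146, Mir328 and Mir872 overlapped that of Mir425, whereas Mir497 (781 and 724 CPM) and Mir27a (715 and 672 CPM, with shared sequence) lay below it.

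Likeness to each gene was measured as the Euclidean distance of log2(CPM + 1) over the 2 libraries. Nearest to Mir191 were Mirlet7e at a distance of 0.19, Mir451a at 0.24, Mir151 at 0.29, Mir100 at 0.32 and Mir652 at 0.58. Nearest to Mir425 were Mir146 at 0.20, Mir497 at 0.21, Mir10b at 0.26, Mir328 at 0.32 and Mir27a at 0.37. With 2 libraries this distance describes level more than pattern.

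With TMM scaling both genes were nearly even between the libraries. The log2 ratio of replicate 1 over replicate 2, after TMM scaling, was 0.032 for Mir191 (exact 95% counting interval 0.012 to 0.053). For Mir425 it was -0.015 (interval -0.079 to 0.049). Neither reached a 2-fold difference, whereas 69 of the 340 detected genes (20.3%) did. The median absolute log2 ratio over all detected genes was 0.55, and 10 detected genes (2.94%) lay closer to 0 than Mir191 and 4 (1.18%) closer than Mir425. With total counts in place of TMM these were 72 (21.2%) and 52 (15.3%). Among the 19 genes with a mean from 0.5 to 2 times that of Mir191, itself included, the median absolute log2 ratio was 0.46 and 5 were at least 2-fold apart. In the same window around Mir425, the 41 genes had a median of 0.46 and 4 were at least 2-fold apart.

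These ratios depend on how the libraries were scaled. Total counts in place of TMM moved every ratio by 0.17, to 0.20 for Mir191 and 0.16 for Mir425, and put the median of all detected genes at 0.19, against 0.020 with TMM. With DESeq2 size factors the ratios were 0.017 for Mir191 (interval -0.004 to 0.037) and -0.031 for Mir425. The sign of the ratio of Mir425 therefore changed with the scaling. The interval of Mir191 held 0 with DESeq2 size factors but not with TMM, and no direction is given for either gene. Relative to the median of all detected genes, which no scaling alters, Mir191 lay 0.013 above it and Mir425 at -0.035. Closer to that median than Mir191 were 2 detected genes (0.588%), and 9 (2.65%) were closer than Mir425, a measure added after the data were seen.

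Marker lists moved with the libraries by different amounts. The red cell list (Mir451a, Mir144 and Mir486) summed to 10216 CPM (replicate 1) and 8848 CPM (replicate 2), a log2 ratio of 0.036 after TMM scaling. That sum was mostly Mir451a (log2 ratio 0.045), while Mir144 had -0.69 and Mir486 had 0.93. Mir486 shares 20 bases with another hairpin, so its count may be incomplete. The sum of the heart muscle list had a log2 ratio of -0.75, with Mir208a at 1.31 against Mir499 at -1.21 and Mir208b at -2.29. The sum of the leukocyte list had -0.33, with Mir155 at 0.091 and Mir150, Mir142 and Mir223 from -0.95 to -2.12. The smooth muscle sum had -0.42, with Mir143 at -0.41 and Mir145a at -0.84, and the endothelial sum had -0.35. At far lower counts, the liver marker Mir122 had -0.595 and the skeletal muscle sum had 0.266. The part of cell composition in the levels of Mir191 and Mir425 was not tested, and fewer cells of a type cannot be told apart from less of a microRNA per cell in whole tissue.

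With TMM scaling, other reference microRNAs of quantitative PCR were less even than Mir191 and Mir425, as were most detected genes. Of the 12 other reference genes listed, 10 were detected, and none of the 10 had a log2 ratio closer to 0 than Mir191 or Mir425. Of all detected genes, 2.94% were closer than Mir191 and 1.18% closer than Mir425, so this count does not set the list apart. With total counts as the scaling, 3 of the 10 were closer to 0 than Mir191 and 2 closer than Mir425. The shares over all detected genes were 21.2% and 15.3%. None of the 10 was closer to the median of all detected genes, beside 0.588% and 2.65% of detected genes. At least a 2-fold difference was found for 4 of the 10, beside 20.3% of all detected genes. The median log2 ratio of the 10 was -0.32, against 0.020 over all detected genes. The list was put together with earlier results of these data known, so this count is a description.

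Mir423 stood at 2635 CPM (replicate 1) and 894 CPM (replicate 2), a log2 ratio of 1.39. Mir93, from the miR-17 family, had 5015 and 5775 CPM (log2 ratio -0.38), and Mir361 had 2077 and 2213 CPM (-0.26). Mir186 was low at 70.2 and 101 CPM (-0.69). These 4 are the detected reference genes whose hairpins share no 20 bases with another, and 1 of them, Mir423, was past 2-fold.

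The remaining detected reference genes belong to microRNAs encoded in several copies, so their gene counts leave out reads that map to more than 1 place. Mir24-1 stood at 160 CPM (replicate 1) and 35.4 CPM (replicate 2), a log2 ratio of 2.01, while its copy Mir24-2 had 95.8 and 155 CPM (-0.87). Mir16-1 had 1423 and 2410 CPM (-0.93) and Mir16-2 had 206 and 448 CPM (-1.29). Mir103-2 had 25.6 and 11.1 CPM (1.03) and Mir26a-2 had 34.9 and 37.3 CPM (-0.26). Mir103-1 (14 and 7 counts) and Mir26a-1 (6 and 137 counts) were below the detection minimum in 1 library each.

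**Figure D3:**
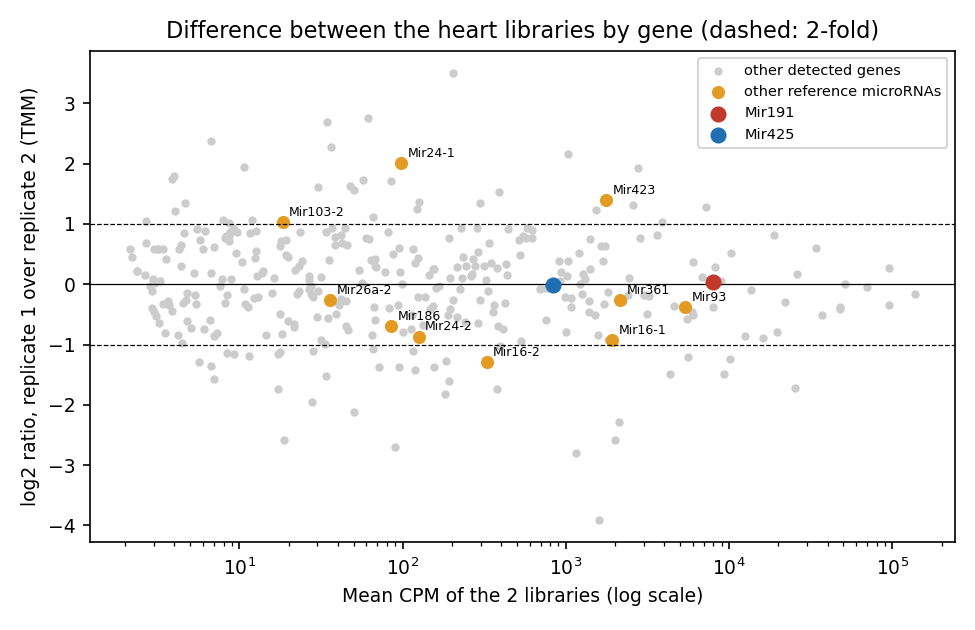
The log2 ratio of replicate 1 over replicate 2 after TMM scaling against mean CPM on a log axis for the 340 detected genes, with dashed lines at 2-fold. Mir191 (0.032) and Mir425 (-0.015) lie on the zero line, while the 10 other reference microRNAs spread from -1.29 to 2.01.

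The proportion of Mir191 to Mir425 within a library does not depend on any scaling between libraries. In replicate 1, 90.7% of the pair's counts belonged to Mir191 (exact 95% interval 90.3% to 91.0%), and in replicate 2 it was 90.4% (90.1% to 90.6%). The log2 ratio of Mir191 over Mir425 was 3.28 in replicate 1 (interval 3.23 to 3.33) and 3.23 in replicate 2 (3.19 to 3.27), with a mean of 3.25 ± 0.034 (SD, n = 2). Replicate 1 minus replicate 2 gave a difference of 0.048 on the log2 scale, with a 95% counting interval of -0.019 to 0.11. The interval holds 0, so a change of proportion was not detectable at this depth.

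The pair was set beside every other pair of adjacent microRNA genes on 1 strand whose starts lie at most 10 kb apart and which were both detected. There were 88 such pairs from 134 genes, and pairs of 1 cluster share genes and are not independent. The within-pair log2 ratio differed between the libraries by a median of 0.56 over the 87 other pairs, with a range of 0.004 to 2.62. Over the 54 of these pairs with no shared sequence, whose counts are less likely to be incomplete, the median was 0.493. Of the 88 pairs, 26 (29.5%) shifted at least 2-fold between the libraries, and Mir191 with Mir425 was not one of them. A counting interval that held 0 was found for 30 of the 88 (34.1%), this pair included.

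Mir191 and Mir425 ranked 5 of 88 for the smallest shift. The 4 pairs with a smaller shift were Mir770 and Mir673, Mir106b and Mir93, Mir501 and Mir500, and Mir212 and Mir132. They are named after their values were seen. Mir106b and Mir93, neighbours in the miR-106b cluster, differed by 0.006 between the libraries (interval -0.057 to 0.068). The intervals of the other 3 were wider, such as -0.51 to 0.50 for Mir770 and Mir673. All 4 intervals overlapped that of Mir191 and Mir425, so the order of these 5 pairs is not resolved. The intervals at ranks 6 and 7 overlapped it as well, so rank 5 marks no boundary. These were Mir433 and Mir127 (-0.050, interval -0.188 to 0.089) and Mir30d and Mir30b (0.050, interval -0.049 to 0.149). Among the 36 other pairs with both genes at 100 CPM or more, the median shift was 0.502 and 5 had an interval that held 0.

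The imbalance itself was not unusual among neighbours. The median absolute log2 ratio within the other pairs was 2.52, and 39 of 87 had a larger imbalance than Mir191 over Mir425. The upstream gene was the higher one in both libraries in 46 of the 87, as for Mir191, the downstream gene in 34, and 7 changed order between the libraries. The 5 pairs nearest in the signed ratio of upstream over downstream gene shifted more between the libraries. This does not set them apart, because only 4 of the 87 other pairs shifted less than Mir191 and Mir425. Mir154 over Mir496a had 4.00 in replicate 1 and 2.57 in replicate 2, and Mir299a over Mir380, a pair with shared sequence, had 3.96 and 2.63. Mir532 over Mir188 had 3.56 and 3.10, Mir127 over Mir434 had 3.77 and 3.02, and Mir93 over Mir25 had 3.92 and 3.55 on the log2 scale. Pairs of like imbalance in which the downstream gene was higher included smaller shifts, such as 0.083 for Mir493 and Mir337 and 0.21 for Mir194-1 and Mir215, named after their values were seen.

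**Figure D4:**
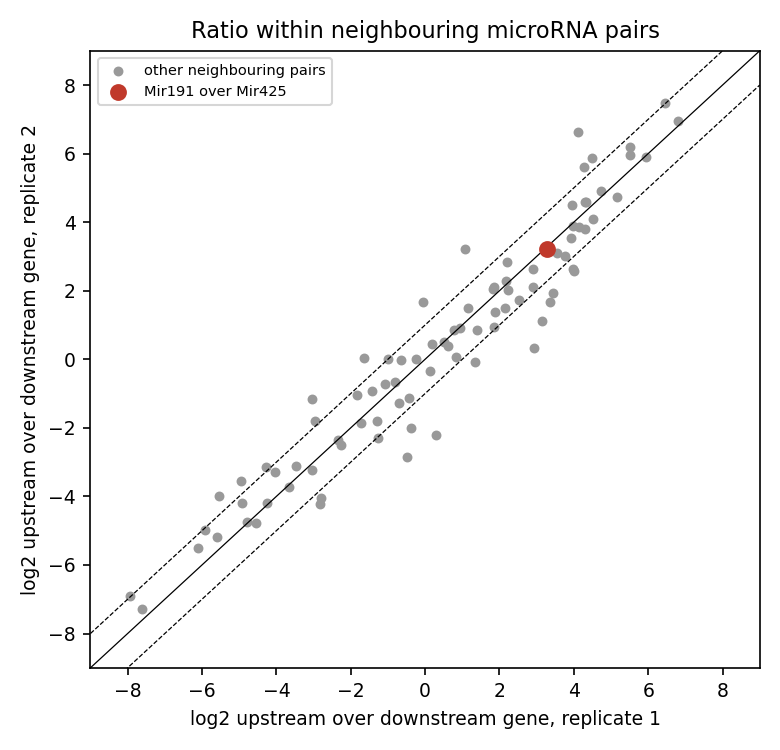
The log2 ratio of the upstream over the downstream gene in replicate 2 against that in replicate 1 for the 88 neighbouring pairs, with the line of equality and dashed lines at a 2-fold shift. Mir191 over Mir425 (3.28 and 3.23) lies on the line of equality, and 26 pairs lie on or outside the dashed lines.

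The level of Mir191 rests on counting reads by strand. The deposited column that ignores strand listed Mir191 at 0 in both libraries, against 31902 and 46576 counts in the column for its own strand. The opposite-strand entry of Gm24083, which covers Mir191, held the same 31902 and 46576 counts, and Gm24083 had 0 counts on its own strand in both libraries. Mir425 overlaps no counted gene on the other strand, and its 3287 and 4960 counts were the same in both columns. Neither gene had a count on the opposite strand. In the column that ignores strand, all 26 detected genes that overlap a counted gene on the other strand kept less than 0.5 of their gene-strand count, and no detected gene without such an overlap did.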

How the data were processed

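For each heart library the authors deposited a table of raw counts, without normalization, of the reads on every microRNA gene. The build was mm10 and the annotation GENCODE M21, per the text deposited beside the tables. For the aligner and the counting program, no name was given in the sources used here. The tables have no header. Their 3 count columns were read from the values as both strands, the gene strand and the opposite strand, and the gene strand was used. The 4 entries that name no gene stayed out of library totals. Their share of the reads was 57.6% (replicate 1) and 63.0% (replicate 2).

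Counts were scaled to CPM over 2202 genes. Ratios between libraries used TMM factors from edgeR 4.0.16 over the 340 detected genes and a prior of 0.5 counts. DESeq2 1.42.0 size factors were an alternative. The ratio formulas were tested on simulated counts. Intervals of shares, ratios between libraries and ratios within a pair are exact binomial, and those of a shift in a pair's ratio are from the normal approximation of the log odds ratio (SciPy 1.17.1). Hairpins were folded with RNAfold 2.7.2. Sequences are from RefSeq (GRCm38.p6), where both genes were matched by symbol.

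Genes were named by a rule. It takes both members, the 3 genes on each side in mean level, the 5 nearest genes, the reference list, the 5 pairs nearest in ratio and the top gene of each marker list. The members and the lists were chosen with earlier results of these data known. The labels' sample descriptions give the male behind each heart a different number, beside a shared donor identifier, and the libraries were treated as separate animals.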

Additional observations from a re-analysis of the deposited data

How the results depend on the processing

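The strand and the denominator moved the levels most. With the column that ignores strand, Mir191 was listed at 0 and Mir425 had a mean of 1140 CPM, and no ratio of Mir191 to Mir425 could be computed. As CPM of all reads the means were 3172 for Mir191 and 332 for Mir425, and without the leading gene in the total they were 9225 and 965. Each library alone gave 7386 to 8511 CPM for Mir191, 787 to 877 CPM for Mir425 and 3.23 to 3.28 for the log2 ratio of Mir191 to Mir425. A ratio between libraries has no value with 1 library.

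The log2 ratio of replicate 1 over replicate 2 was 0.20 for Mir191 and 0.16 for Mir425 with total counts, and 0.062 for Mir191 with TMM over all genes. Closer to 0 than Mir191 were 72 genes with total counts and 5 with DESeq2 size factors, against 10 with TMM, and 2 were closer to the median of all genes. For Mir425 these were 52, 7, 4 and 9. With total counts 3 of the 10 detected reference genes were closer than Mir191 and 2 closer than Mir425, beside 21.2% and 15.3% of all detected genes. The 69 genes at least 2-fold apart became 328 of 733 with at least 1 count in either library and 40 of 216 with at least 100 counts in both. Neighbouring pairs numbered 57 with starts at most 1 kb apart and 51 with at least 100 counts, and 2 other pairs shifted less than Mir191 and Mir425 in each case. Without genes that share sequence, 1 reference gene was past 2-fold. The median of that list was -0.15 with total counts. The causes were not tested beyond what the settings change by construction.

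No paired analysis was possible because the study has 1 group.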

Other observations

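In the column that ignores strand, 22 of the 340 detected genes were listed at 0 in both libraries. Mir191 was 1 of these 22 genes and the fifth by mean level among them. Above it stood Mir378a (138304 CPM), Mir30e (10063 CPM), Mir451a (8921 CPM) and Mirlet7e (8224 CPM), each overlapped on the other strand by a further gene annotated as a microRNA. Of the 26 detected genes with such an overlap, the endothelial Mir126a kept 6 of 333445 counts in replicate 1 and 15 of 634127 in replicate 2.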
